A study of Drosophila melanogaster with 12 samples.

Results

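In whole Drosophila melanogaster 16637 transcripts were measured, of which 44 could be paired with a gene symbol. Of these 44, 3 carry genes for making glycosylphosphatidylinositol (GPI) anchors or dolichol phosphate mannose. They were taken by their FlyBase identifiers and not by their measured values, though earlier results of these data were known when they were chosen. FBtr0084974 carries PIG-P and Tcs6, FBtr0071680 carries PIG-M, CG42379, CG42380 and CG42381, and FBtr0073063 carries Dpm2 and CG12016. The transcript of PIG-P and Tcs6 was higher in females in each of the 6 populations, by 2.09-fold on average. That of PIG-M was higher in males of every population, by 0.04 to 1.31 on the log2 scale, a difference that did not pass the test over all transcripts. That of Dpm2 had male minus female differences between -0.25 and 0.43 on the log2 scale in 5 populations, and in the other it was 10.2-fold lower in the female sample. No regime difference passed for any of the 3.

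The flies were virgins aged 4 days from 6 populations that had evolved for 65 generations under monogamy (3 populations) or polygamy (3 populations), all on cornmeal medium and all with the genetic background labelled IV. Each population gave 1 sample of males and 1 of females, so that 12 single-colour arrays formed 4 groups of 3: monogamy males, polygamy males, monogamy females and polygamy females. Populations are numbered within their regime, and population 1 of monogamy has no tie to population 1 of polygamy. The labels do not say how many flies were pooled, and 1 array per population and sex means that the spread between arrays holds both populations and technique. RNA came from entire animals, so a higher share of a cell type and more RNA per cell cannot be told apart.

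A GPI anchor is a glycolipid that is built on the endoplasmic reticulum and attached to the end of certain proteins, which it then holds on the outer face of the cell membrane. The first step adds N-acetylglucosamine to phosphatidylinositol, and the human counterpart of PIG-P is a small subunit of the enzyme complex that does this. The human counterpart of PIG-M adds the first mannose of the anchor inside the endoplasmic reticulum. That mannose comes from dolichol phosphate mannose, a lipid-linked sugar that also feeds N-glycan synthesis, and the human counterpart of Dpm2 is a regulatory subunit of the enzyme that makes it. The 3 named genes thus stand for the start of the anchor, its first mannose and the mannose donor.

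Each transcript also carries genes of other functions. The RefSeq gene table gives all genes of a transcript the same span and names their reading frames. Tcs6 is the upstream frame and PIG-P the main frame of FBtr0084974. CG42381, CG42379 and CG42380 are upstream frames 1, 2 and 3 and PIG-M is the main frame of FBtr0071680. Dpm2 is the upstream frame and CG12016 the main frame of FBtr0073063. Tcs6 is the fly counterpart of Pcc1, a subunit of the KEOPS complex that modifies transfer RNA with a threonylcarbamoyl group. CG12016 also bears the name dNrk in the table, for a kinase of nicotinamide riboside, a precursor of NAD. A value below belongs to a transcript, and it cannot be divided between the genes on it.

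Values are log2 expression values as deposited, on which a difference of 1 is a factor of 2. Over all transcripts, the first principal component placed the 6 male and the 6 female arrays apart and held 69.8% of the variance. The array of polygamy female 3 stood apart: its mean correlation with the remaining females was 0.733, against 0.894 to 0.924 for each of those, and its 5th percentile was 5.42 against 4.30 to 4.43. Many results below are also given without this array. All 36 member values lay above the 5th percentile of their arrays, the nearest by 2.45. Levels of different transcripts are not compared, since each is read by its own probes.

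The transcript of PIG-P and Tcs6 stood at 11.35, 11.24 and 11.13 in males of monogamy populations 1 to 3 and at 11.35, 11.67 and 11.08 in males of polygamy populations 1 to 3. In females it stood at 11.90, 12.19 and 12.13 under monogamy and at 12.51, 12.23 and 13.28 under polygamy. The lowest female value, 11.90 in monogamy female 1, lay above the highest male value, 11.67 in polygamy male 2, so that the sexes did not overlap. This also held for 19.0% of all transcripts in the same direction.

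Averaged over the regimes, PIG-P and Tcs6 had a male mean of 11.30 ± 0.21 and a female mean of 12.37 ± 0.49 (SD over 6 arrays each), a male minus female difference of -1.07 (95% interval -1.53 to -0.61, SE 0.21, adjusted p = 0.00137, limma). At an adjusted p under 0.05, 55.9% of all transcripts were called, 34.6% higher in females and 21.3% higher in males, so a call toward females is common in whole flies. The size was also near the middle, since 56.3% of all transcripts had a smaller absolute difference. With an absolute difference of at least 1 required as well, the transcript remained called, as did 26.1% of transcripts toward females. Without polygamy female 3 the difference was -0.91 (adjusted p = 0.000397), under that size.

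**Figure D1:**
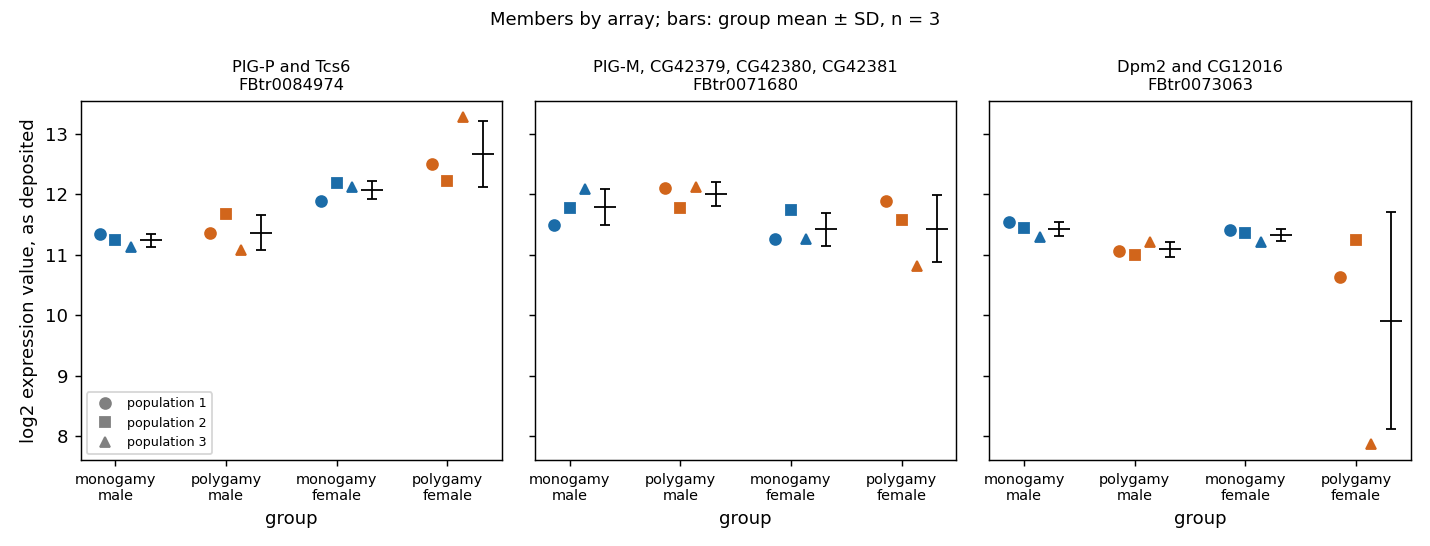
Log2 expression values of the 3 transcripts (y axis) on each of 12 arrays, by group (x axis), with a marker shape for each population number and black bars for the group mean ± SD (n = 3). PIG-P and Tcs6 lie at 11.90 or above in all females and at 11.67 or below in all males, and Dpm2 and CG12016 lie at 7.87 in polygamy female 3.

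Male and female arrays of a population can be paired by its label. The male minus female difference of PIG-P and Tcs6 was -0.55, -0.95 and -0.99 in monogamy populations 1 to 3, and -1.15, -0.56 and -2.20 in polygamy populations 1 to 3. Females were higher in 6 of 6 populations, as they were for 30.6% of all transcripts. An exact two-sided sign-flip permutation test gave p = 0.03125, the smallest that 6 pairs allow, and it was run once for each of the 3 transcripts without adjustment. The difference in polygamy population 3 was 1.91 times as large on the log2 scale as the next, and its female array is the one that stood apart.

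Within monogamy, the difference of PIG-P and Tcs6 was -0.83 (adjusted p = 0.0461, SE 0.29), with males at 11.24 ± 0.11 and females at 12.07 ± 0.15 (SD over 3 arrays each). Called toward females were 23.4% of all transcripts, and 41.2% did not overlap in that direction. With the population as a fixed block the adjusted p was 0.119, and of 12 fits that each left out 1 array, 3 kept the call, those without polygamy male 2, polygamy female 2 and polygamy female 3. Within polygamy the difference was -1.30 (adjusted p = 0.00503, SE 0.29), with males at 11.37 ± 0.30 and females at 12.67 ± 0.55 (SD over 3 arrays each). Here 23.6% of all transcripts were called toward females and 30.6% did not overlap in that direction. All 12 fits without 1 array kept the call, at -0.999 without polygamy female 3 (adjusted p = 0.00414), but a fit of the 6 polygamy arrays alone did not (adjusted p = 0.0503).

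PIG-M shares its transcript with 3 upstream frames. It stood at 11.50, 11.78 and 12.09 in males of monogamy populations 1 to 3 and at 12.10, 11.77 and 12.13 in males of polygamy populations 1 to 3. The females had 11.27, 11.74 and 11.26 under monogamy and 11.90, 11.58 and 10.81 under polygamy. The sexes overlapped, since monogamy male 1 lay below 3 of the 6 females, and the lowest value of all was that of polygamy female 3.

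The male minus female difference of the PIG-M transcript was 0.47 (95% interval -0.02 to 0.96, SE 0.22, adjusted p = 0.0951, limma) and did not pass. Males averaged 11.89 ± 0.25 and females 11.43 ± 0.39 (SD over 6 arrays each). Of all transcripts, 27.6% had a smaller absolute difference. Within the populations males were higher by 0.23, 0.04 and 0.83 under monogamy and by 0.21, 0.19 and 1.31 under polygamy. That is 6 of 6 populations, as for 21.6% of all transcripts in that direction, and the exact two-sided sign-flip permutation test gave p = 0.03125, again the smallest it can give. The differences ranged from 0.04 to 1.31 with a median of 0.22, and the largest were those of monogamy population 3 and polygamy population 3. Without polygamy female 3 the difference was 0.31 (adjusted p = 0.127). It passed without polygamy female 1, at 0.58 (adjusted p = 0.0471). Within single regimes it was 0.37 under monogamy (adjusted p = 0.393) and 0.57 under polygamy (adjusted p = 0.161), the latter 0.26 without polygamy female 3 (adjusted p = 0.408).

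**Figure D2:**
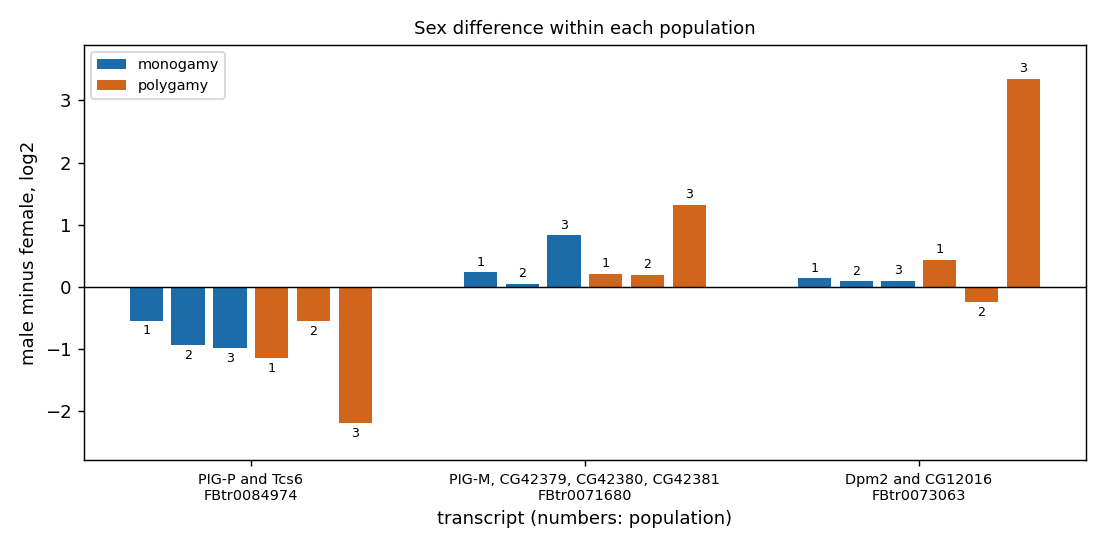
Male minus female difference in log2 units (y axis) of the 3 transcripts (x axis) within each of 6 populations, coloured by regime and numbered within it. All 6 bars of PIG-P and Tcs6 lie below 0, all 6 of PIG-M above 0, and the bar of Dpm2 in polygamy population 3 reaches 3.35.

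The transcript of Dpm2 and CG12016 varied little within 3 of the groups (SD 0.10 to 0.12) and widely among polygamy females (SD 1.79). It stood at 11.54, 11.44 and 11.30 in males of monogamy populations 1 to 3 and at 11.06, 10.99 and 11.22 in males of polygamy populations 1 to 3. The monogamy females had 11.40, 11.36 and 11.21. The polygamy females had 10.62, 11.24 and 7.87, and this last value, from polygamy female 3, lay 2.76 below the next lowest female.

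Sex made a difference of 0.64 to Dpm2 and CG12016 (95% interval -0.40 to 1.68, SE 0.47, adjusted p = 0.267, limma), from 11.26 ± 0.21 in males to 10.62 ± 1.37 in females (SD over 6 arrays each). It did not pass, and without polygamy female 3 it was 0.13 (adjusted p = 0.456). Within populations males exceeded females by 0.13, 0.08 and 0.09 under monogamy and by 0.43, -0.25 and 3.35 under polygamy, with a median of 0.11. Males were higher in 5 of 6 (exact two-sided sign-flip permutation p = 0.25). Within monogamy the difference was 0.10 (adjusted p = 0.923). Within polygamy it was 1.18 (adjusted p = 0.172), and it passed without polygamy female 2, at 1.84 (adjusted p = 0.0345), but was 0.16 without polygamy female 3 (adjusted p = 0.568).

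To place the value of 7.87, polygamy female 3 was set against the median of the other 5 females for every transcript. Dpm2 and CG12016 had a shift of -3.37 from that median, a factor of 10.3. Among 1385 transcripts whose median in the other females was within 0.25 of it, the median shift was -0.50, and 4.84% lay further from 0. PIG-P and Tcs6 had a shift of 1.09, where 1447 transcripts of like level had a median of -0.54. Of these, 3.32% lay higher, and 36.8% lay further from 0 in either direction. The PIG-M transcript had a shift of -0.77, close to the median of -0.63 of 1471 transcripts of like level, of which 57.9% lay further from 0. The 3 shifts differed in direction, and shifts of both signs were common among transcripts of like level. For Dpm2 and CG12016 the lower and upper quartiles of those were -1.54 and 0.50. They were -1.47 and 0.22 for PIG-P and Tcs6, and -1.60 and 0.18 for PIG-M. The part that the array itself plays in these values was not tested.

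**Figure D3:**
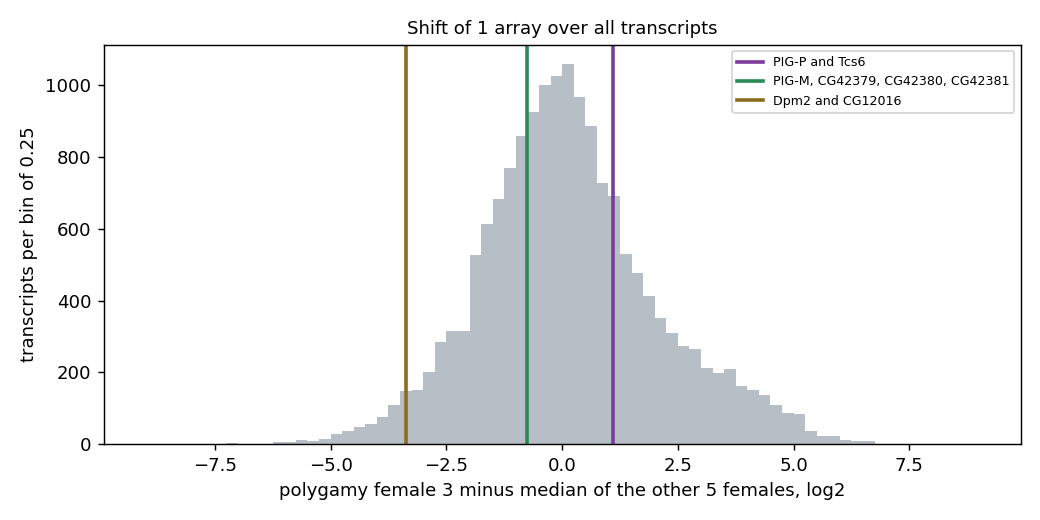
Number of transcripts (y axis) by the shift of polygamy female 3 from the median of the other 5 females (x axis, log2, bins of 0.25), with lines at the 3 transcripts. The lines stand at 1.09 for PIG-P and Tcs6, at -0.77 for PIG-M and at -3.37 for Dpm2 and CG12016.

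The comparison of regimes asks how expression differs after evolution with or without competition for mates. In males, no transcript was called at an adjusted p under 0.05 (0%, 0 of 16637, limma). Only 220 (1.32%) had an unadjusted p under 0.05. Dpm2 and CG12016 averaged 11.43 ± 0.12 in monogamy males and 11.09 ± 0.12 in polygamy males (SD over 3 arrays each), a difference of 0.34 (SE 0.67, 95% interval -1.14 to 1.81). Each monogamy male lay above each polygamy male, which held for 4.11% of all transcripts in that direction, and the exact two-sided permutation test gave p = 0.1, the smallest that 3 against 3 can give. The SE of this difference takes in the spread of the females, polygamy female 3 included; without that array the difference was unchanged and its adjusted p was 0.889. PIG-P and Tcs6 differed by -0.13 (95% interval -0.78 to 0.52) and PIG-M by -0.21 (95% interval -0.90 to 0.48), and the regimes overlapped for both.

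In females, 0.0601% of all transcripts were called (10 of 16637, limma), none of them a member. An unadjusted p under 0.05 was found for 4824 (29.0%). PIG-P and Tcs6 averaged 12.07 ± 0.15 in monogamy females and 12.67 ± 0.55 in polygamy females (SD over 3 arrays each), a difference of -0.60 (95% interval -1.25 to 0.05, SE 0.29, adjusted p = 0.195). Each polygamy female lay above each monogamy female, by as little as 0.04 between 12.23 and 12.19, and 15.0% of all transcripts did not overlap in that direction. The exact permutation test gave p = 0.1, and without polygamy female 3 the difference was -0.30 (adjusted p = 0.368). Dpm2 and CG12016 differed by 1.41 (SE 0.67, 95% interval -0.06 to 2.89, adjusted p = 0.185), between 11.32 ± 0.10 and 9.91 ± 1.79, and by 0.39 without polygamy female 3 (adjusted p = 0.256). The regimes overlapped for it, because polygamy female 2 at 11.24 exceeded monogamy female 3 at 11.21. The PIG-M transcript differed by -0.01 (95% interval -0.70 to 0.69), with 11.42 ± 0.27 and 11.43 ± 0.56, and by -0.32 without polygamy female 3.

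With the 2 arrays of each population averaged, no transcript was called (0%, limma), and 2511 (15.1%) had an unadjusted p under 0.05. The means of Dpm2 and CG12016 were 11.47, 11.40 and 11.25 under monogamy and 10.84, 11.11 and 9.54 under polygamy, a difference of 0.87 (SE 0.42, adjusted p = 0.318). The regimes did not overlap, which held for 13.1% of all transcripts with monogamy higher. The means of PIG-P and Tcs6 were 11.62, 11.71 and 11.63 under monogamy and 11.93, 11.95 and 12.18 under polygamy, a difference of -0.36 (SE 0.19, adjusted p = 0.322), also without overlap, as for 11.2% of all transcripts with polygamy higher. PIG-M differed by -0.11 (SE 0.23, adjusted p = 0.770) and overlapped. Without polygamy population 3 the differences were 0.40 for Dpm2 and CG12016, -0.28 for PIG-P and Tcs6 and -0.23 for PIG-M.

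The interaction asks whether a regime difference differs between the sexes. It was called for no transcript (0%, limma), with 593 (3.56%) at an unadjusted p under 0.05. As the regime difference in males minus that in females, it was 0.47 for PIG-P and Tcs6 (SE 0.42, adjusted p = 0.862), -0.20 for PIG-M (SE 0.44, adjusted p = 0.915) and -1.08 for Dpm2 and CG12016 (SE 0.94, adjusted p = 0.862). Without polygamy female 3 these were 0.17, 0.11 and -0.05. The wider sex difference of PIG-P and Tcs6 under polygamy was therefore not shown to differ from that under monogamy. For Dpm2 and CG12016 the 95% interval of the interaction, -3.16 to 1.01, was the widest of the 3.

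**Figure D4:**
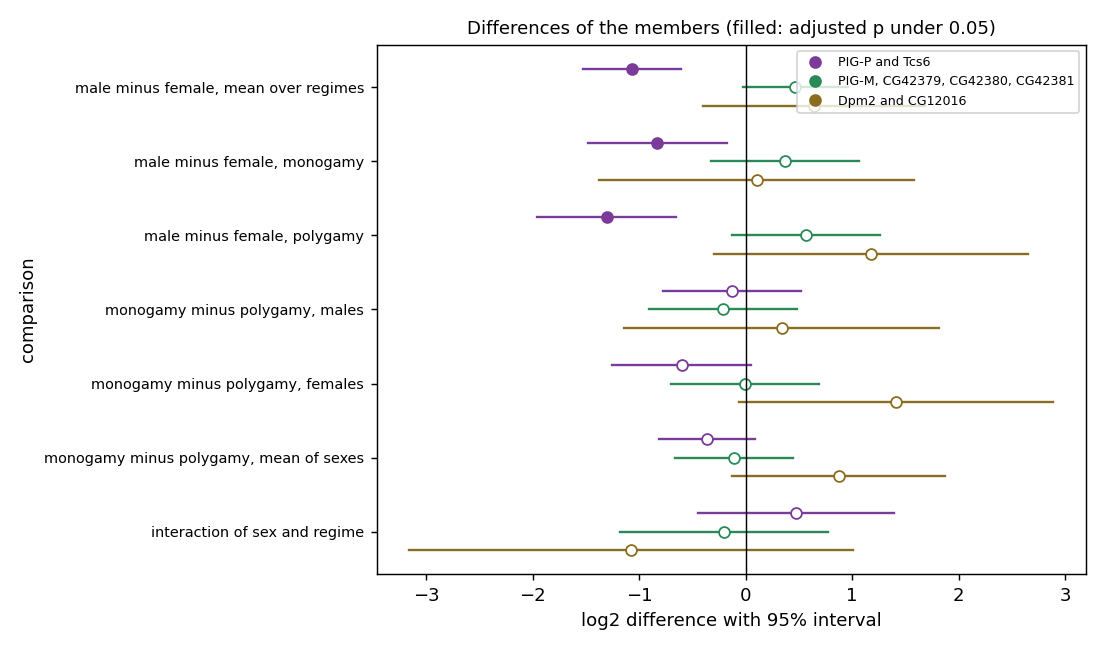
Log2 differences (x axis) with 95% intervals from limma for the 3 transcripts in 7 comparisons (y axis), filled where the adjusted p was under 0.05. Only the sex differences of PIG-P and Tcs6, at -1.07, -0.83 and -1.30, are filled, and the intervals of Dpm2 and CG12016 are the widest in every comparison.

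The levels within each transcript gave a different order of groups. PIG-P and Tcs6 were highest in polygamy females and then in monogamy females, polygamy males and monogamy males. The PIG-M transcript was highest in polygamy males (12.00 ± 0.20, SD, n = 3), then in monogamy males (11.79 ± 0.30), polygamy females and monogamy females. In both orders the 2 regimes of a sex stand next to each other and did not differ beyond the test, and the middle step, which crosses sex and regime at once, was not tested. Dpm2 and CG12016 ran from monogamy males through monogamy females and polygamy males to polygamy females, where the sexes of a regime stand next to each other and did not differ beyond the test.

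Likeness of pattern was measured as the root mean square difference of 2 transcripts over the 12 arrays, after subtracting the mean of each transcript, so that a small value in log2 units means a like pattern. PIG-P and Tcs6 differed from PIG-M by 0.95 and from Dpm2 and CG12016 by 1.49, where the median over all other transcripts was 0.93. PIG-M and Dpm2 with CG12016 differed by 0.79, below the medians of 0.95 for PIG-M and 1.28 for Dpm2 with CG12016. Of 16636 others, 6305 were nearer to PIG-M and 2760 nearer to Dpm2 with CG12016. A flat transcript, equal on all arrays, would lie at 0.63 from PIG-P and Tcs6, 0.38 from PIG-M and 0.95 from Dpm2 with CG12016. PIG-M thus lay nearer to a flat transcript than to Dpm2 with CG12016. Without polygamy female 3 the differences of the 3 pairs, in the order above, were 0.68, 0.63 and 0.45. The medians for PIG-P with Tcs6, PIG-M and Dpm2 with CG12016 were then 0.68, 0.79 and 0.71. A flat transcript would lie at 0.48, 0.30 and 0.24 from them, nearer to each than the other members were. Of the 43 other transcripts with a gene symbol, that of CG31917 and Tfb5, the latter a subunit of transcription factor TFIIH, was nearest to PIG-P and Tcs6 at 0.29, and 193 of all 16636 others were nearer. It was also the nearest without polygamy female 3 (0.30). CG30100 and CG42372 (0.40) and CG42455 and vnc (0.40) followed.

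Nearest to the PIG-M transcript was CG16974 at 0.32, with 391 transcripts nearer. CG42496 and Ppcdc (0.38), the latter an enzyme of coenzyme A synthesis, and CG10570 and CG42502 (0.39) followed. A flat transcript would lie at 0.38, about as near as those of Ppcdc and of CG10570. Without polygamy female 3 the nearest was CG45089 and ND-MNLL, the latter a subunit of respiratory complex I, at 0.21. A flat transcript would then lie at 0.30. Nearest to Dpm2 and CG12016 was CG45085 and CG8026 at 0.17, with 9 transcripts nearer, then alpha-Spec, which encodes a spectrin (0.21), and Fatp1, which encodes a fatty acid transporter (0.34). CG45085 and CG8026 stayed nearest without polygamy female 3 at 0.17, where 160 transcripts were nearer. CG33995, CG44000 and CG44001 on 1 transcript (0.19) and alpha-Spec (0.20) then followed, and Fatp1 was no longer among the 3 nearest. A flat transcript would lie at 0.24 from Dpm2 and CG12016 without that array, against 0.95 over all 12.

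Few other genes of these pathways could be given values. The gene table pairs 44 transcripts of the data with a gene symbol. Of 27 listed genes of GPI anchor synthesis 2 were among them, PIG-P and PIG-M, and of 23 listed genes of dolichol mannose and N-glycan precursor synthesis 1, Dpm2. Of 8 listed genes of threonylcarbamoyl modification of transfer RNA 2 were, Tcs6 and Tcs1, the latter on FBtr0091786 with Polr3K, a subunit of RNA polymerase III. The transcript of Tcs1 and Polr3K had a male minus female difference of -1.15 averaged over the regimes (adjusted p = 0.0164). It was -1.57 within monogamy (adjusted p = 0.0275) and -0.73 within polygamy, which did not pass (adjusted p = 0.246). Its regime difference in females was 1.31 (adjusted p = 0.134), opposite in sign to the -0.60 of PIG-P and Tcs6, and neither passed. None of 18 listed markers of female or male tissues and of dosage compensation was paired with a transcript, so the sex labels were not checked against markers. The gene table holds 7 of the 8 female names, 8 of the 8 male names and 0 of the 2 dosage compensation names.

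Of the 44 transcripts with a gene symbol, 28 carry several genes, the 3 members and 25 others. How many genes the transcripts without a symbol carry is not known. Of the 28, 11 were called by sex, all 11 higher in females and 0 higher in males, with a median difference of -0.35. Over all transcripts 55.9% were called, 5758 higher in females (34.6%) and 3540 higher in males (21.3%), with a median of -0.34. The share called was thus lower among the 28, and their share called toward females was near that of all transcripts. PIG-P and Tcs6 are among the 11, and the transcripts of PIG-M and of Dpm2 are among those of the 28 that were not called.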

How the data were processed

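Total RNA of whole flies was measured on 12 single-colour NimbleGen arrays. The deposited table holds 1 log2 expression value for each transcript on each array, and the submitters' processing notes name RMA as its source. Its version, the annotation release and which arrays were normalized together are unstated in the labels. All 12 columns were matched to a sample. Genes were named from a RefSeq table of assembly Release 6, whose synonyms hold the transcript identifiers. Coordinates and sequences are not used here.

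In R 4.3.3, limma 3.58.1 (lmFit, eBayes) fitted all 16637 transcripts in 1 model of 4 groups without a block, except that regimes averaged over the sexes were compared on 6 population means. Benjamini-Hochberg adjustment ran over the whole table, with a threshold of 0.05. The fits were also run on simulated data with independent noise, whose spread for a transcript was equal on all arrays. That setting holds no array that stands apart. Single transcripts had exact permutation tests. The members and lists were chosen with earlier results of these data known. The genes to be named were the members, the listed pathway genes and, for each member, the 3 nearest transcripts with a symbol. Pairing comes from the population label. As a check over all transcripts, deviations from group means correlated between the sexes of a population at 0.53, -0.07 and 0.40 in the monogamy and 0.09, 0.07 and -0.18 in the polygamy populations. Alternatives were other normalizations, filters, priors, blocks (statmod 1.5.0), array subsets and thresholds. Arrays have no read depth, so their number limits precision.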

Additional observations from a re-analysis of the deposited data

Results flagged for a closer look

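Extreme values were sought in 9 sets of 6 values, namely the males, the females and the male minus female differences of each transcript. The distance of the highest or lowest value from its neighbour, as a share of the range, was held against the 95% critical value of Dixon. It was above that value in 3 cases. A set taken alone does so by chance in about 1 of 20, and the 9 sets share arrays. All 3 involve polygamy population 3. The female value of Dpm2 and CG12016 was 7.87, at a share of 0.779 of the range. The male minus female difference of Dpm2 and CG12016 was 3.35, at a share of 0.811. The male minus female difference of PIG-P and Tcs6 was -2.20, at a share of 0.636. Both differences contain the array of polygamy female 3, whose 5th percentile and correlation with the other females stood apart, and the part of that array in them was not tested.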

How the results depend on the processing

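Of 498 values recomputed for the 3 transcripts under 30 alternatives, 18 of which left out 1 array or population, 469 kept their direction and their side of the threshold, 10 changed sign, 3 came to pass and 16 no longer passed. Many of these values could not change direction, since filters, priors, blocks and thresholds leave the difference as it is and alter only its test. Most also did not pass in the main fit. The sex difference of PIG-P and Tcs6 averaged over the regimes passed in every fit that was run. Within monogamy it no longer passed after quantile normalization over all arrays (-0.74, adjusted p = 0.0768) or within each sex (-0.77, adjusted p = 0.0640), cyclic loess within each sex (-0.72, adjusted p = 0.115), centring on the median (-0.83, adjusted p = 0.0898), with the population as a fixed replicate block (-0.83, adjusted p = 0.119), and by its size of -0.83 where at least 1 was required. Without 1 array it ranged from -0.92 to -0.77. Within polygamy it missed the threshold when only those 6 arrays were fitted (-1.30, adjusted p = 0.0503). The sex difference of PIG-M passed after cyclic loess (0.51, adjusted p = 0.0429) and ranged from 0.31 to 0.58 without 1 array, and that of Dpm2 within polygamy ranged from 0.16 to 1.84.

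Sign changes occurred only in differences that did not pass. The interaction of PIG-M was 0.018 after cyclic loess, 0.41 without polygamy female 3, polygamy female 2 and monogamy male 1 together, and -0.44 to 0.11 without 1 array. Its regime difference ranged from -0.32 to 0.23 in females and from -0.23 to 0.033 over both sexes, and that of PIG-P in males from -0.27 to 0.024. Among all transcripts, the 10 called for regime in females became 1 after either quantile normalization, 4 after cyclic loess, 0 (limma, 6 female arrays alone), 24 without the 3 arrays together, and 1 to 2080 without 1 array. The 0 interactions (limma) became 1 without the dimmest 25%, 1 with a random replicate block, and 0 to 7 without 1 array. The 7053 sex differences within polygamy became 4566 with those arrays alone. For the 3 transcripts, neither replicate block changed a call other than that of PIG-P and Tcs6 within monogamy. Over all transcripts, the sex calls averaged over the regimes numbered 9298 without a block, 9031 with the fixed block and 9577 with the random one. The causes were not tested, and fits with fewer arrays also have fewer degrees of freedom. Array weights were not used, because their estimate did not converge. The exact permutation tests were recomputed under 4 alternatives chosen after the data were seen, and none crossed 0.05. The number of arrays, 3 a group, limits the precision.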
